A study of Schmidtea mediterranea with 36 samples.

Results

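The subject of this report is a set of 100 transcripts that stood lower in starved than in recently fed planarians in each of 3 cell populations. For every transcript of the deposited tables, values were put on a log2 scale after adding 1, averaged over the 4 replicates of a group, and 6 changes were formed, namely 7dS minus 1dS and 30dS minus 1dS in the X1, X2 and Xins populations. A transcript was eligible where its mean value reached 5 in every one of the 3 tables, and the members are the 100 eligible transcripts whose highest change of the 6 is most negative. They are 100 of 6762 eligible transcripts (1.48%) and of 26558 transcripts in all. The members were chosen by these 6 changes in all 36 libraries. The changes, and the limma calls, overlaps and paired counts between starved and 1dS libraries given further on, therefore describe the members. These are no evidence about the members.

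The samples are asexual Schmidtea mediterranea planarians fed on organic veal liver and then starved. Cells were dissociated and sorted by Hoechst staining into X1 (stem cells in the S and G2/M phases), X2 (stem cells in G0/G1 together with progeny) and Xins (differentiated cells). Each population was collected at 1 day (1dS), 7 days (7dS) and 30 days (30dS) of starvation with 4 replicates, which gives 9 groups and 36 libraries, and no mutation, RNAi or drug is named for any of them. Planarians of one body size were pooled for each library, so a group describes a sorted gate from many animals and not a single cell type. In sorted bulk samples, fewer cells of a type within a gate and less RNA per cell cannot be told apart.

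Planarians shrink and regrow with their food supply, and stem cells divide in a burst after a meal. Making protein is among the most costly activities of a cell: initiation factors load ribosomes onto mRNAs, aminoacyl-tRNA synthetases charge tRNAs with amino acids, and chaperones fold the products in the cytosol and in the endoplasmic reticulum. Proteins that are no longer needed are marked with ubiquitin and degraded, a step on which progress through the cell cycle also depends. Gene symbols used here are matches of planarian transcripts to named genes, mostly of human, as listed with the study, and the roles given are those known in other animals and yeast.

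The deposited values are normalised TPM, that is, relative transcript abundances divided by one size factor per library. Column totals, in units of 1000000, ran from 0.816 to 1.94 at 1dS, from 0.638 to 1.22 at 7dS and from 0.655 to 1.46 at 30dS, and the number of reads behind each library is not given in the sources used here. The library numbered 4 had the lowest total in 9 of 9 groups. Between 2290 and 10378 transcripts were listed at 0 in the 1dS libraries, against 1733 to 4427 at 7dS and 2064 to 5461 at 30dS. The transcript of cdk1, a kinase that drives cells into mitosis and the only marker paired with a transcript in the sources used here, stood at 44.0 to 68.7 normalised TPM in the X1 libraries, at 1.45 to 12.7 in those of X2 and at 0 to 0.310 in those of Xins, so that the populations did not overlap. Within X2, cdk1 stood at 12.4, 7.73, 12.7 and 6.04 normalised TPM at 1dS. It stood at 2.12, 2.60, 1.45 and 1.88 at 7dS and at 2.92, 3.43, 2.91 and 2.67 at 30dS. Whether the cell content of the X2 gate changed with starvation was not tested. No marker of a differentiated cell type could be checked.

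The members fall into a small leading set and a long, gradual tail. The first 9 transcripts by the rule had a highest change between -9.30 and -2.67 on the log2 scale, the transcript at rank 10 had -1.87, the one at rank 50 had -0.94, and those at ranks 98, 99 and 100 (comp3986, CARS and SARS) had -0.77, -0.77 and -0.76. The first transcripts outside the list, comp467, comp93269 and comp10797, had -0.76 each, so the limit is set by the number 100 and not by a gap. Of all eligible transcripts, 2164 (32.0%) had 6 changes below 0. Here and below, comp followed by a number stands for the Dresden transcriptome identifier, so that comp3986 is dresden_comp3986_c0_seq1.

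**Figure D1:**
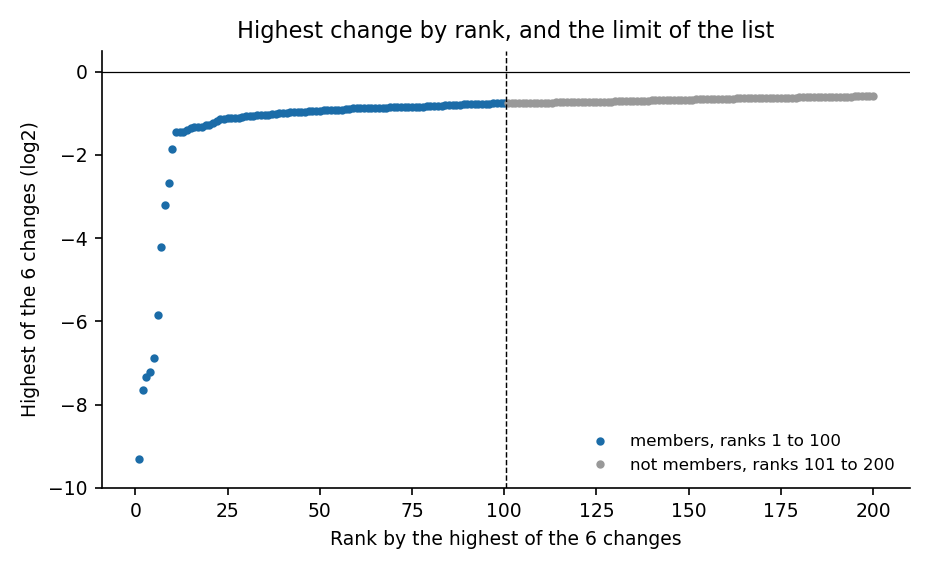
Highest of the 6 changes (log2, y axis) against rank by that value (x axis) for the 100 members (blue) and the next 100 transcripts (grey), with the dashed line at the limit of the list. The first 9 points lie between -9.30 and -2.67, and beyond rank 10 the curve flattens and passes the limit at -0.76 with no step.

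The members stood lower at 7dS than at 1dS, and at 30dS they stood about as low as at 7dS. The median member had a change of -1.23 at 7dS and -1.16 at 30dS in X1, of -1.43 and -1.46 in X2, and of -1.23 and -1.11 in Xins. Over all eligible transcripts the medians of the same changes were -0.09 and -0.08 in X1, -0.13 and -0.15 in X2, and -0.15 and -0.10 in Xins. In X1 the median member stood at 6.50 ± 0.17 at 7dS and 6.60 ± 0.20 at 30dS, against 7.85 ± 0.38 at 1dS, as log2(normalised TPM + 1) with the SD over 4 libraries. The same median was 6.45 ± 0.15 at 7dS and 6.37 ± 0.24 at 30dS against 7.99 ± 0.42 at 1dS in X2, and 5.33 ± 0.08 at 7dS and 5.45 ± 0.09 at 30dS against 6.76 ± 0.59 at 1dS in Xins. In X1 and X2 no starved library reached the lowest 1dS library, and in Xins the highest starved library, at 5.57, lay below the lowest 1dS library, at 6.21. The change nearest to 0 was the one at 30dS in Xins for 37 members, one of the X1 changes for 45 members, one of the X2 changes for 12 members and the one at 7dS in Xins for 6 members.

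**Figure D2:**
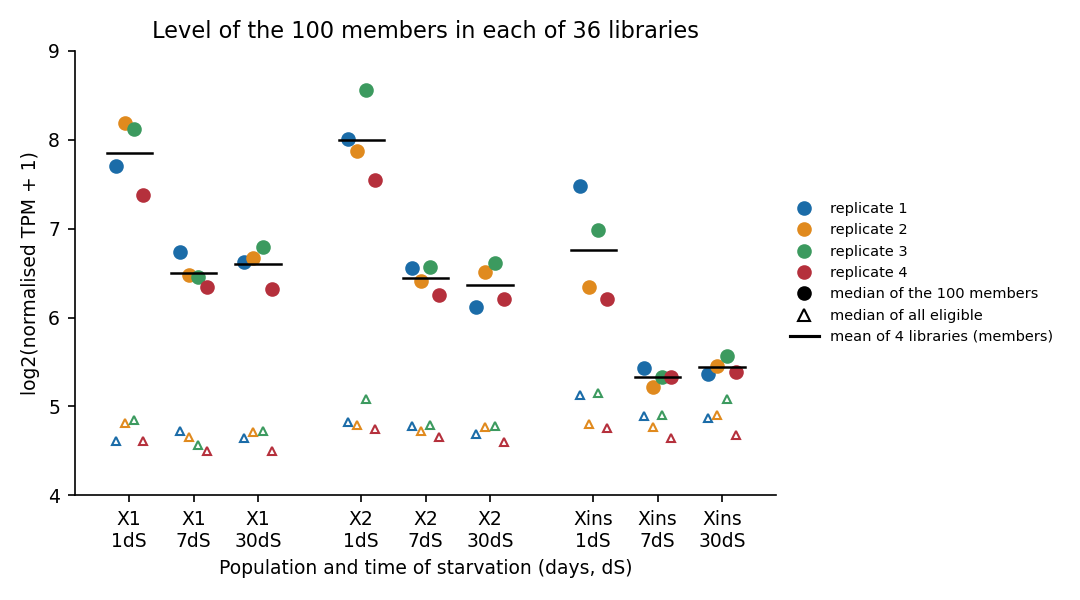
Median over the 100 members (filled circles) and over the 6762 eligible transcripts (open triangles) in each library, as log2(normalised TPM + 1) on the y axis, by population and time on the x axis, coloured by replicate number; the bar is the mean of the 4 libraries for the members. The circles lie lower at 7dS and 30dS than at 1dS in each population, while the triangles stay between 4.50 and 5.15.

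With limma and Benjamini-Hochberg adjustment at 0.1, 72 members were called lower at 7dS than at 1dS in X1, where 6.92% of all transcripts tested were called lower, and 65 at 30dS, where 4.36% were. In X2 the counts were 82 at 7dS (background 6.79%) and 85 at 30dS (8.19%). In Xins they were 53 at 7dS (3.06%) and 51 at 30dS (3.85%). No member was called higher in any of the 6 comparisons by limma, where 6.77% and 5.43% of all transcripts tested were at 7dS and 30dS in X1, 9.56% and 12.5% in X2, and 2.05% and 3.31% in Xins. At an unadjusted p under 0.05 the count was 0 as well. These contrasts are the ones the rule used, so the counts describe how many members the spread between replicates lets through and carry no further weight. In Xins the count depended on single libraries: leaving out the 7dS library numbered 1 gave 27 at 7dS, leaving out the one numbered 3 gave 30, and leaving out either the 1dS library numbered 1 or that numbered 3 gave 30. At 30dS the count was 28 when the 30dS library numbered 1 was dropped and 31 when the one numbered 2 was. Over all transcripts tested, 244 of 17080, 279 of 16836, 258 of 17021 and 286 of 17088 were lower at 7dS, in that order. At 30dS 238 of 17082 and 302 of 17116 were. With every library brought to one total, 24 members were called lower in Xins at 7dS and 28 at 30dS. Over all transcripts tested, 103 and 162 of 17327 were. With the libraries of 7dS and 1dS fitted alone the count at 7dS was 22, and 129 of 17174 over all transcripts tested. Libraries with the same number deviated together in Xins between 7dS and 1dS, and with the replicate number as a block 93 members were called lower at 7dS there. The block also raised the count over all transcripts tested, from 520 to 2396 of 16996.

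**Figure D3:**
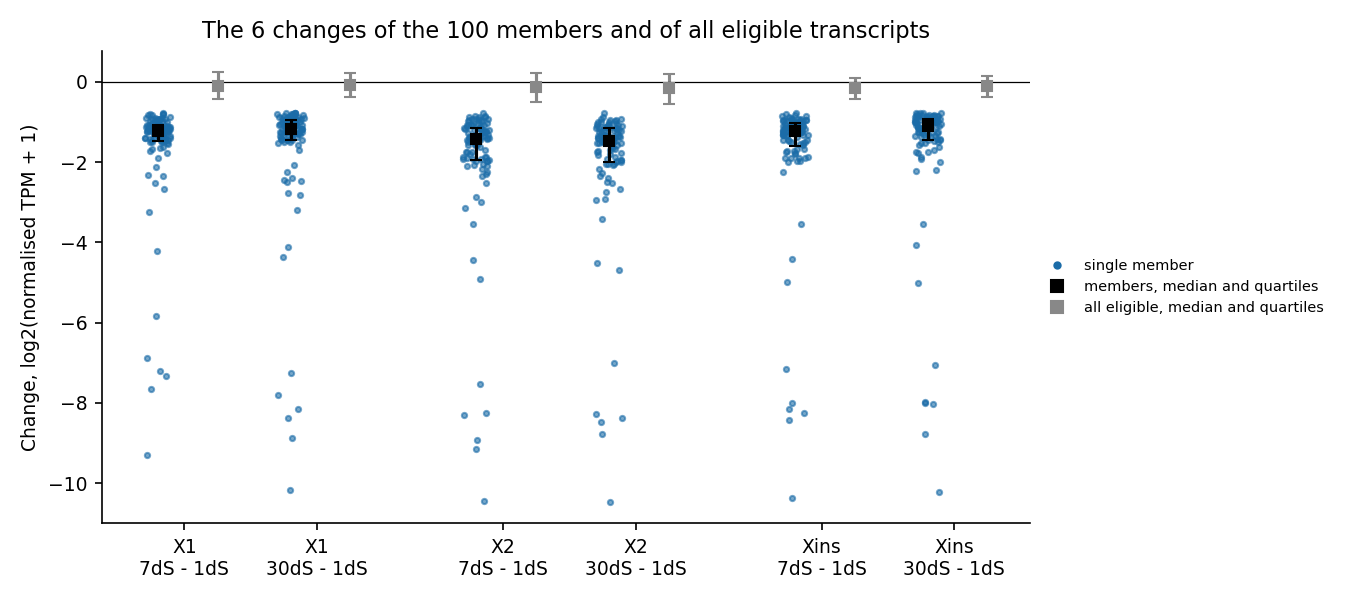
The 6 changes on the log2(normalised TPM + 1) scale (y axis) for each population and starvation time (x axis): blue points are single members, black squares with bars the members' median and quartiles, grey squares with bars those of all eligible transcripts. The members' medians lie between -1.46 and -1.11, the medians of all eligible transcripts between -0.15 and -0.08.

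Counted without averaging, 57 members had all 4 libraries of 7dS below all 4 of 1dS in X1, against 11.0% of eligible transcripts, and 53 had this at 30dS, against 8.02%. In X2 the counts were 66 at 7dS (8.92% of eligible transcripts) and 63 at 30dS (11.1%), and in Xins 54 at 7dS (10.6%) and 41 at 30dS (9.78%). For 33 members no overlap was seen in any of the 6 comparisons, against 1.39% of eligible transcripts. The rule chose the members on these same values, so these counts, and those in pairs below, describe the members and carry no further weight. When each starved library was set against the 1dS library with the same replicate number, 62 members were lower in all 24 such pairs, against 255 eligible transcripts (3.77%). The pairs are not independent, because the 7dS and 30dS libraries of a number were set against the same 1dS library. Among the other members, 12 were lower in 19 pairs or fewer. Within the replicates numbered 4 the median member changed by between -1.07 and -0.70. In single pairs of that number 85 to 95 members were lower, against 58.7% to 66.5% of eligible transcripts.

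The most extreme members, those ranked 1 to 9, shared one pattern across libraries, in which the replicates numbered 4 stood apart. None of the 9 has a symbol or a process entry in the sources used here. The first, comp11431, had 14.2, 0.0642, 0.533 and 1524 normalised TPM in the 4 X1 libraries of 7dS and 0.145, 0.528, 0.294 and 1440.1 in those of 30dS, against 22844, 10353, 24604 and 1021 at 1dS. In X2 it had 0.282, 0.179, 0.651 and 1629 at 7dS and 0.253, 0.0365, 0.313 and 2242 at 30dS, against 21186, 8876, 36635 and 2201 at 1dS. In Xins it had 0.259, 0.0716, 0.481 and 2066 at 7dS and 0.326, 0.277, 0.545 and 2303 at 30dS, against 59504, 4244, 24068 and 2058 at 1dS. The replicates numbered 1 to 3 thus held it near 0 in starved animals, apart from 14.2 in X1 replicate 1 of 7dS, and at 4244 TPM or more at 1dS, whereas the replicate numbered 4 held it at a similar, intermediate level at all times and in all populations.

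The second, comp8115, repeated this in X1, with 29.4, 0.226, 3.36 and 751 normalised TPM at 7dS and 0.636, 1.25, 0.496 and 769.8 at 30dS, against 8769, 3692, 11479 and 549 at 1dS. Summed over the 9 transcripts, libraries numbered 1 to 3 held 1.83 to 215 normalised TPM at 7dS and 2.81 to 14.9 at 30dS, against 12316 to 137492 at 1dS. Libraries numbered 4 held 3586 to 4985 at 7dS and 3466 to 5474 at 30dS, against 2487 to 5249 at 1dS. Within the replicates numbered 4, between 0 and 3 of the 9 were lower in 5 of the 6 starved libraries and 9 in the X2 library of 7dS, where their median change was -0.33. The large changes of these 9 therefore rest on the replicates numbered 1 to 3, and what differs in the replicates numbered 4 was not tested. At 1dS the 9 made up between 0.285% and 8.42% of a library's total.

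The proportions among the 9 were computed at 1dS and in the libraries numbered 4 only. Relative to comp11431, comp8115 stood at a median ratio of 0.459 over the 12 libraries of 1dS, with a range from 0.357 to 0.859, and at 0.483 to 0.537 in the 9 libraries numbered 4. For comp3082 the median ratio at 1dS was 0.0947 and the range in libraries numbered 4 was 0.0796 to 0.0938. The ratio varied more for comp104000, from 0.00268 to 0.00825 at 1dS, and for comp6995, from 0.00130 to 0.00558. Across the 36 libraries, which share their tables and size factors, Pearson's r between log2 values ran from 0.82 to 1.00 among the 9. Among the first 6 it ran from 0.99 to 1.00. Among the 88 members left without these 9 and the set described next, the median pairwise r was 0.69. The rule chose members by their changes between times in these same libraries, which by itself raises r. These r values therefore describe the members and carry no further weight. Set between populations, X1 minus Xins at 1dS lay between -0.59 and -0.15 on the log2 scale for the 9, and none passed the limma threshold or had an unadjusted p under 0.05.

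**Figure D4:**
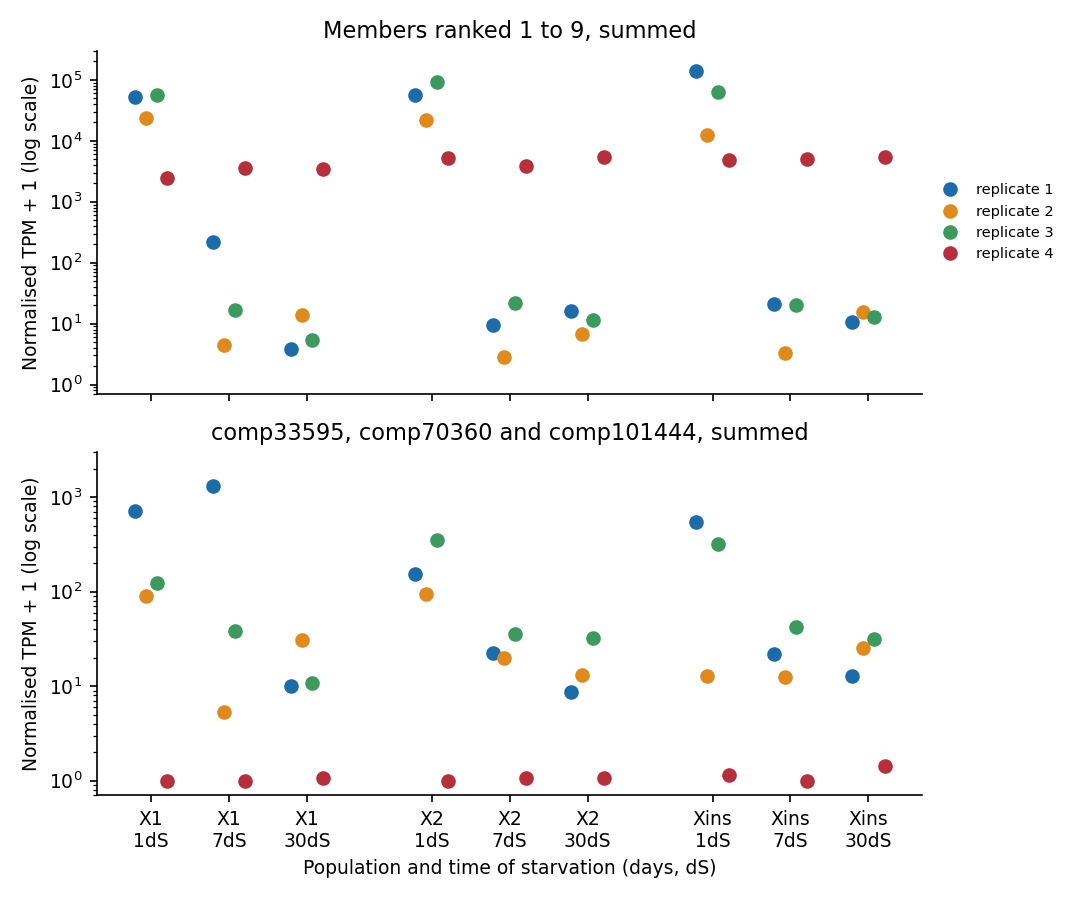
Summed normalised TPM + 1 (log axis) of the members ranked 1 to 9 (upper panel) and of comp33595, comp70360 and comp101444 (lower panel) in each library, by population and time on the x axis and coloured by replicate number. In the upper panel the replicates numbered 4 lie between 2487 and 5474 at all times, while the others reach at most 215 at 7dS and 14.9 at 30dS, against at least 12316 at 1dS. In the lower panel the replicates numbered 4 lie at or near 0 throughout.

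A set of 3 further members without annotation, comp33595, comp70360 and comp101444, ranked 22, 26 and 41, moved together in another way and were singled out after their values were seen. In X1, comp33595 had 536, 1.82, 14.3 and 0 normalised TPM at 7dS and 3.19, 14.6, 2.84 and 0 at 30dS, against 324, 37.4, 47.6 and 0 at 1dS. In Xins it had 7.12, 5.35, 15.7 and 0 at 7dS and 5.77, 11.4, 14.6 and 0 at 30dS, against 259.9, 3.96, 129.7 and 0 at 1dS. All 3 were listed at or near 0 in each replicate numbered 4, with a sum of at most 0.435, and their highest X1 library was replicate 1 of 7dS, with a sum of 1306. None of the 3 was called lower in any of the 6 comparisons by limma, and at an unadjusted p under 0.05 the count was 1 at 30dS in X2 and 0 in the other 5. Their place in the list is the least secure: without X1 replicate 1 of 1dS the highest change became 0.00 for comp33595, 0.02 for comp70360 and 0.02 for comp101444, and without X1 replicate 4 of 7dS it became 0.03, 0.03 and 0.10.

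Among the members with a symbol, protein folding was the largest group. Symbols came only from the study's lists of translation, tRNA charging, transcription elongation, protein folding, TRiC and the unfolded protein response. They cover 150 of 26558 transcripts and 127 of 6762 eligible ones. The named groups therefore follow from these lists and do not describe the members without a symbol. The 8 members of this group had median changes of -1.56 at 7dS and -1.28 at 30dS in X1, -1.20 and -1.19 in X2, and -1.25 and -1.20 in Xins, and 7 of the 8 were lower in all 24 pairs of libraries with the same number. FKBP4, a co-chaperone of HSP90 and a prolyl isomerase, stood highest in the list. It had 152, 180.3, 121 and 153 normalised TPM in X1 at 7dS and 209, 156, 135 and 181 at 30dS, against 371, 361, 475 and 521 at 1dS, and its groups did not overlap in any population. ST13, which brings HSP70 and HSP90 together, had 303, 355, 229 and 355 at 7dS and 481, 361, 361 and 404 at 30dS in X1, against 813, 1252, 885 and 995 at 1dS. In Xins ST13 had 111, 133, 84.5 and 157 at 7dS and 131, 130.0, 111 and 227 at 30dS, against 327, 398, 332 and 355 at 1dS, again with no overlap.

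The cytosolic members also included HSPA4L, a nucleotide exchange factor of HSP70, and cct4B, a subunit of the TRiC chaperonin, the double ring that folds actin and tubulin. The transcript of cct4B had 149, 177, 108 and 146 normalised TPM in X1 at 7dS and 220.4, 195, 164 and 147 at 30dS, against 335, 637, 429 and 406 at 1dS. In X2 cct4B had 154, 181, 120.0 and 143 at 7dS and 174, 189, 133 and 148 at 30dS, against 373, 354, 540.4 and 373 at 1dS. HSPA4L had changes between -1.71 and -0.84. Neither overlapped between starved and 1dS libraries in any population.

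The other 4 folding members act in the endoplasmic reticulum. They are bip-1, the HSP70 of that compartment, HSP90B1, its HSP90, Hyou1, a large HSP70-like chaperone, and MLEC, a lectin that binds newly made glycoproteins. In Xins bip-1 had 160.1, 301, 161 and 311 normalised TPM at 7dS and 160.0, 209, 156 and 339.9 at 30dS, against 520.4, 544, 653 and 516 at 1dS. In X1 it had 79.5, 117, 63.7 and 99.8 at 7dS and 102, 82.4, 61.5 and 99.4 at 30dS, against 174, 189.7, 189.9 and 212 at 1dS. The bip-1 groups overlapped only between 7dS and 1dS in X2, where 1 library of 7dS had 371 and 1 of 1dS had 339. HSP90B1 had its largest changes in X1, -1.76 at 7dS and -1.52 at 30dS, against -0.87 and -0.99 in X2. Hyou1 had changes between -1.21 and -0.88, and MLEC between -1.36 and -0.98.

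The members are the most lowered part of a folding list of which many others passed the test too. The study lists 41 transcripts of protein folding that it drew from the 7dS comparison in X1, so their direction in X1 is not independent evidence. Of the 33 that are not members, 30 were called lower at 7dS and 14 at 30dS in X1. In X2, 19 of 32 tested were called lower at 7dS and 16 at 30dS, and in Xins 18 of 31 at each time. None was called higher by limma, and at an unadjusted p under 0.05 the count of higher ones was 1 at 7dS in X2 and 0 in the other 5 comparisons. Of eligible transcripts, 10.3% and 5.49% were called lower at 7dS and 30dS in X1, 10.3% and 12.7% in X2, and 5.63% and 6.21% in Xins. The shares called higher were 6.74% and 6.30% in X1, 5.58% and 6.15% in X2, and 0.636% and 1.30% in Xins. The study took up TRiC because most of its subunits fell at 7dS and recovered at 30dS in X1 of these data, and stood higher in X1 than in Xins. Neither their direction in X1 nor that between X1 and Xins is therefore independent evidence. The member cct4B had changes of -1.61 at 7dS and -1.28 at 30dS in X1, and so still stood below 1dS at 30dS. The annotation list of TRiC subunits and the unfolded protein response holds 22 transcripts and 2 members, bip-1 and cct4B. Of its other transcripts tested, 8 of 18 were called lower and 2 higher at 7dS in X1, 1 lower and 1 higher at 30dS in X1, 7 and 5 of 18 lower at 7dS and 30dS in X2, and 6 and 4 of 17 lower in Xins, with none higher in X2 or Xins by limma or at an unadjusted p under 0.05.

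Translation initiation was represented by 4 members. These are EIF3G and EIF3D, subunits of the eIF3 complex that joins the small ribosomal subunit to mRNA, and 2 transcripts matched to EIF2S1, the alpha subunit of the eIF2 complex that delivers the initiator tRNA. EIF3G had 114, 108, 89.5 and 94.7 normalised TPM in X1 at 7dS and 108, 116, 109 and 89.5 at 30dS, against 160.2, 299.8, 245 and 189 at 1dS. In Xins it had 21.2, 24.1, 24.3 and 21.1 at 7dS and 21.6, 28.0, 29.4 and 24.8 at 30dS, against 70.5, 45.7, 63.9 and 40.7 at 1dS. No starved library of EIF3G reached a 1dS library of the same population. The same held for EIF3D, with changes between -1.11 and -0.87, and for the EIF2S1 transcript comp2437, with changes between -1.37 and -0.88. The other EIF2S1 transcript, comp6582, had the largest change of the 4, -1.99 at 30dS in X2, and its groups overlapped in 3 of the 6 comparisons. Reads shared by transcripts that resemble each other could be split between the EIF2S1 pair, so their separate values are less certain.

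All 4 were lower in each of the 24 pairs of libraries with the same number. The list of translation complexes made by annotation holds 40 transcripts. Of those that are not members, 5 of 32 tested were called lower and 2 higher at 7dS in X1, and 3 lower and 2 higher at 30dS. In X2, 9 and 10 of 30 were lower and 1 was higher at each time, and in Xins 3 of 29 were lower at each time and none was higher by limma, with 1 higher at an unadjusted p under 0.05 at 30dS. The median change of these other transcripts lay between -0.56 and -0.25 over the 6 comparisons. Of eligible transcripts, 10.3% were called lower and 6.74% higher at 7dS in X1, and 5.49% and 6.30% at 30dS. The X1 counts of the list lie close to these shares. In X2, 10.3% and 12.7% of eligible transcripts were lower and 5.58% and 6.15% higher. In Xins, 5.63% and 6.21% were lower and 0.636% and 1.30% higher.

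Among enzymes that charge tRNAs, 5 were members. LARS, GARS, ValRS, CARS and SARS, the synthetases for leucine, glycine, valine, cysteine and serine, had median changes of -1.26 at 7dS and -1.08 at 30dS in X1, -1.06 and -0.95 in X2, and -1.04 and -0.85 in Xins. LARS had 103, 77.8, 74.0 and 70.1 normalised TPM in X1 at 7dS and 82.6, 103, 108 and 72.6 at 30dS, against 178, 327, 337 and 136 at 1dS. In X2 LARS had 86.7, 63.9, 105 and 71.0 at 7dS and 82.2, 85.7, 88.5 and 63.1 at 30dS, against 202, 232, 385 and 128 at 1dS. SARS, the last transcript inside the limit, had 11.3, 15.0, 7.67 and 14.9 in Xins at 7dS and 10.1, 12.5, 8.07 and 15.2 at 30dS, against 20.4, 30.0, 24.9 and 26.9 at 1dS. The groups of GARS and ValRS did not overlap in any population, while those of LARS, CARS and SARS overlapped in 1 or 2 of the 6 comparisons.

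All 5 were lower in each of the 24 pairs. The annotation list of tRNA aminoacylation holds 34 transcripts. Of the others tested, 12 of 26 were called lower at 7dS and 8 at 30dS in X1, 13 of 27 at each time in X2, and 6 of 27 at each time in Xins. None was called higher by limma, also at an unadjusted p under 0.05, and the median change of these others lay between -0.71 and -0.39. Of eligible transcripts, 10.3% and 5.49% were called lower at 7dS and 30dS in X1, 10.3% and 12.7% in X2, and 5.63% and 6.21% in Xins. The shares called higher were 6.74% and 6.30% in X1, 5.58% and 6.15% in X2, and 0.636% and 1.30% in Xins.

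A further 11 members have no symbol but carry one block of process entries together. The block includes mitotic S phase, anaphase-promoting complex-dependent catabolic process, signal transduction by p53 class mediator, and antigen processing and presentation of peptide antigen via MHC class I, all terms that go with the cell cycle and with regulated protein breakdown. The entries come from lists that the study drew from falling transcripts in X1, so the direction in X1 is not independent evidence, and the sources give these transcripts no gene name. Their median changes were -1.15 at 7dS and -1.04 at 30dS in X1, -1.35 and -1.49 in X2, and -0.96 and -0.96 in Xins, and all 11 were lower in each of the 24 pairs. The first of them, comp1583, had 226, 126, 179 and 109 normalised TPM in X1 at 7dS and 140.1, 201, 247 and 102 at 30dS, against 288, 553, 754 and 264 at 1dS. In X2 it had 216, 138, 189.5 and 117 at 7dS and 123, 185, 206 and 112 at 30dS, against 722, 549, 1276 and 310.2 at 1dS. Its X2 groups stood wholly apart. Next came comp2117, with its strongest change, -1.88, at 30dS in X2, and comp2007, with changes between -1.49 and -0.96 and no overlap in any population.

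The mitotic S phase list of the 30dS comparison, which is complete in the copy used here, holds 19 transcripts, 9 of them members. Of the other 9 tested, 7 were called lower at 7dS and 8 at 30dS in X1. In X2 7 of 8 were lower at each time, and in Xins 2 of 6 at 7dS and 1 of 6 at 30dS. The study drew this list from transcripts lower at 30dS in X1, so the X1 counts are not independent evidence. Of eligible transcripts, 10.3% and 5.49% were called lower at 7dS and 30dS in X1, 10.3% and 12.7% in X2, and 5.63% and 6.21% in Xins.

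The remaining 11 members with process entries include comp6639, entered under regulation of translational initiation, comp1596, under biological phase, and comp2158, under cell redox homeostasis. In Xins comp6639 had 15.8, 15.3, 14.2 and 14.1 normalised TPM at 7dS and 13.5, 14.3, 15.4 and 14.0 at 30dS, against 33.1, 31.2, 33.5 and 32.5 at 1dS, with no overlap in any population. The changes of comp2158 ranged from -1.98 at 30dS in X2 to -0.83 at 30dS in Xins, and those of comp1596 from -1.57 to -1.08. The other 8 carry broad metabolic, biosynthetic or catabolic entries.

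Without the leading 9 and the group of 3, 49 members have neither symbol nor entry. Their median changes were -1.23 at 7dS and -1.18 at 30dS in X1, -1.45 and -1.47 in X2, and -1.27 and -1.14 in Xins, and 26 of the 49 were lower in all 24 pairs. The most abundant of them in X1 at 1dS is comp158, singled out after its values were seen, with 1810.5, 485, 957 and 223 normalised TPM in X1 at 7dS and 494, 1088, 1827 and 237 at 30dS, against 2333, 3494, 7397 and 1939 at 1dS. Its lowest 1dS library thus lay just above its highest 7dS and 30dS libraries in X1.

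The rule compared no populations, so the level in X1 against Xins is a separate measure, taken after all libraries had been brought to a common total of 1000000. With limma and Benjamini-Hochberg adjustment at 0.01, 52 members were higher in X1 than in Xins at 1dS and 4 were lower. Over all transcripts tested, 16.0% were higher and 37.4% lower, and over eligible transcripts 25.7% were higher and 23.1% lower. At 7dS, 41 of 99 members tested were higher and 2 lower (background 14.3% and 41.0%, and 22.8% and 26.1% of eligible transcripts), and at 30dS 50 of 100 were higher and 2 lower (15.3% and 42.1%, and 24.2% and 26.2% of eligible transcripts). The median member stood 1.30 higher in X1 on the log2 scale at 1dS, 1.02 at 7dS and 1.03 at 30dS, against 0.01, -0.08 and -0.09 over eligible transcripts. At all 3 times 36 members were higher in X1 and 2 were lower, and 34 members passed the threshold at no time. In simulated data with few true differences among 16297 transcripts, the 1dS fit called 3% of differences of log2 1 and 57% of those of log2 2. The measured 1dS fit called 2613 transcripts higher and 6096 lower, and with that many calls the adjusted threshold is less strict. The simulated shares therefore do not carry over to this fit. A missed threshold still does not show equal levels. Libraries with the same number deviated together at 7dS and 30dS, and with the replicate number as a block 67 members were higher and 8 lower at 7dS, and 65 higher and 8 lower at 30dS. With the block, 3874 of 17713 transcripts tested were higher and 9129 lower at 7dS, and 3650 of 16665 higher and 8955 lower at 30dS. Without the X1 library of 1dS numbered 2 the count of lower members at 1dS was 2, and without the Xins library of 7dS numbered 4 the median difference at 7dS was 1.36.

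**Figure D5:**
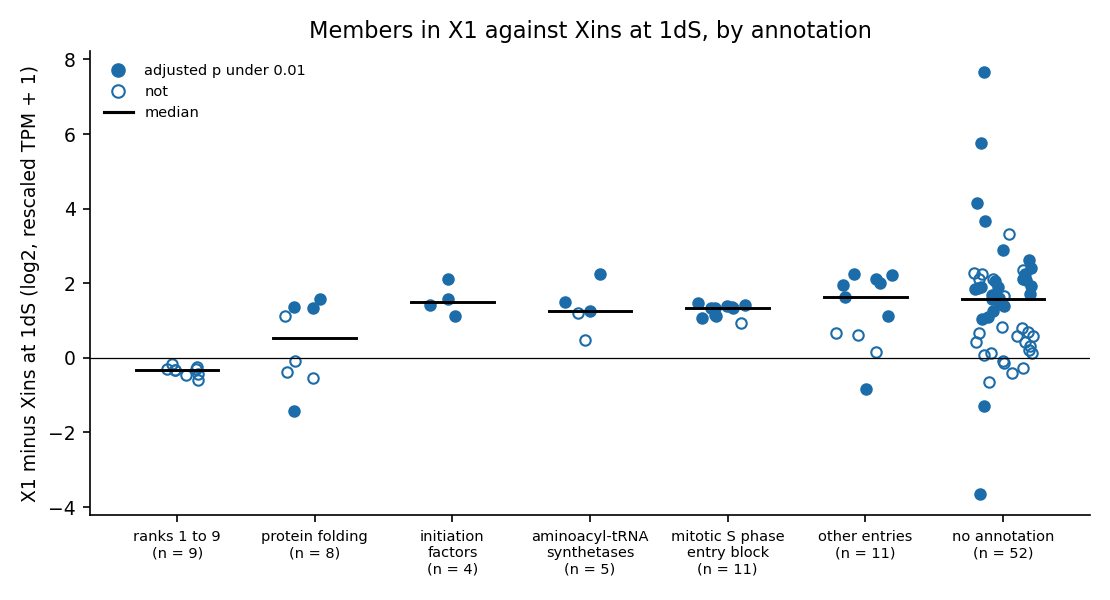
X1 minus Xins at 1dS on the log2 scale of rescaled TPM + 1 (y axis) for each member, by annotation (x axis); filled points have an adjusted p under 0.01, open points do not, and bars are medians. Initiation factors, synthetases and the mitotic S phase entry block lie above 0, the ranks 1 to 9 lie just below 0, and the folding members spread from -1.42 to 1.58.

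By annotation, all 4 initiation factor transcripts were higher in X1 than in Xins at 1dS, with differences between 1.12 and 2.10, and 3 of the 4 were at 7dS and at 30dS. Of the synthetases, 3 of 5 were higher at 1dS, 2 at 7dS and 2 at 30dS. SARS had the second largest difference of the members with a symbol or entry, 2.24 (SE 0.41, adjusted p = 2.2e-04 by limma), after comp1052, with organonitrogen compound metabolic process among its entries, at 2.24 (SE 0.22, adjusted p = 7.5e-07). In rescaled TPM, SARS averaged 113 in X1 and 23.3 in Xins at 1dS, and comp1052 averaged 166 in X1 and 34.5 in Xins. Of the 11 members of the mitotic S phase block, 10 were higher in X1 at 1dS, 6 at 7dS and 9 at 30dS. Whether the differences between populations changed with time was not tested.

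Of the folding members, the cytosolic FKBP4, ST13 and cct4B were higher in X1 at 1dS, at 1.37 (SE 0.29, adjusted p = 7.5e-04), 1.58 (SE 0.34, adjusted p = 9.5e-04) and 1.35 (SE 0.24, adjusted p = 1.9e-04) by limma, and HSPA4L, at 1.13, just missed the threshold (SE 0.35, adjusted p = 0.0114). Whether the compartments differ was not tested. Of the endoplasmic reticulum members, bip-1 was lower in X1, at -1.42 (SE 0.29, adjusted p = 6.2e-04). MLEC, Hyou1 and HSP90B1 had differences of -0.38, -0.55 and -0.08 and did not pass. At 7dS and 30dS none of the 8 folding members passed in either direction, and the adjusted p of bip-1 was 0.0266 at 7dS and 0.0377 at 30dS by limma. The study used Sleuth at the same threshold and called all somatic cct subunits, cct4B among them, higher in X1 at 30dS. In rescaled TPM, cct4B averaged 187 in X1 and 103 in Xins at 30dS, so the direction was the same and only the limma call was missed. With median-of-ratios scaling, which put the median over all transcripts at 0.05 against -0.56 in the rescaled libraries, the bip-1 difference at 1dS was -0.67 and did not pass the threshold. The other annotated member lower in X1 was comp1482, entered under organonitrogen compound biosynthetic process, at -0.84 (SE 0.23, adjusted p = 0.0053), with -0.09 under median-of-ratios scaling and no call there. Its call was also lost without X1 replicate 2 of 1dS, at -0.66.

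The widest differences between populations belonged to members without annotation, described here after their values were seen. In rescaled TPM at 1dS, comp2921 averaged 1851 in the X1 libraries, 562 in those of X2 and 8.65 in those of Xins, a difference of 7.67 between X1 and Xins (SE 0.49, adjusted p = 1.0e-08 by limma). For comp158 the averages were 3207, 1384 and 66.6, and the difference was 5.75 (SE 0.45, adjusted p = 7.6e-08). The opposite order was seen for comp881, with 19.1 in X1, 24.99 in X2 and 259.6 in Xins, a difference of -3.66 (SE 0.47, adjusted p = 1.0e-05). The X2 population held the highest level of comp332, with 2892 rescaled TPM against 233 in X1 and 21.9 in Xins. Each of these 4 nonetheless had 6 changes at or below -0.86 with starvation. In Xins comp881 had 51.3, 55.9, 75.4 and 132 normalised TPM at 7dS and 43.3, 53.0, 64.0 and 106 at 30dS, against 272, 345, 409.9 and 184 at 1dS.

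Between 7 and 30 days of starvation no member was called higher or lower in X1, X2 or Xins. Over all transcripts, 0% were called higher and 0.00754% lower in X1, 0.120% and 0.00667% in X2, and 0.124% and 0.0177% in Xins. At an unadjusted p under 0.05, 1 member was lower at 30dS in X1, comp6830_c1, with -0.52 (SE 0.23, adjusted p = 0.94 by limma), and 1 was higher in X2, comp719, with 0.94 (SE 0.40, adjusted p = 1.00). There was none in Xins. The median of 30dS minus 7dS over members was 0.05 in X1, -0.06 in X2 and 0.12 in Xins, against 0.04, -0.03 and 0.09 over eligible transcripts. With every library brought to one total the member medians were -0.02 in X1, -0.01 in X2 and -0.02 in Xins, so the sign in X1 and Xins turned with the scaling. This scaling also moved the median of all transcripts tested, to -0.11 in X1, 0.03 in X2 and -0.16 in Xins. Relative to it the members stood at 0.09, -0.05 and 0.14, and at 0.09, -0.05 and 0.14 without rescaling. For 87 members in X1, 96 in X2 and 96 in Xins the 2 changes differed by less than 0.5. A p that misses the threshold does not show that the levels at 7dS and 30dS were equal.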

How the data were processed

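RNA of FACS-sorted planarian cells was sequenced by the authors as single-end TruSeq libraries on a HiSeq2500. After ribosomal reads were removed with Bowtie2, the authors quantified transcripts of the Dresden transcriptome with kallisto 0.43.0 and divided TPM by a Sleuth size factor per library. The deposited values are therefore a normalised signal in units of TPM, in 3 tables of 26558 transcripts and 12 libraries, 1 table per population. They are not counts, TPM keeps no depth, and the precision that read numbers per library would give is unknown. No genome or transcript sequence was used.

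The members and the gene lists were chosen with earlier results of these data known. Values were tested as log2(value + 1) with limma 3.58.1 in R 4.3.3, with a mean-variance trend and Benjamini-Hochberg adjustment over all transcripts with a mean of at least 1 among the 12 libraries of a table. The pseudocount of 1 understates changes of low transcripts. The threshold was an adjusted p of 0.1 between times and of 0.01 between X1 and Xins. For X1 against Xins all columns were first brought to a sum of 1000000, because the tables were normalised separately. The labels do not state whether replicates came from separate cultures, so p-values measure only the spread between these libraries. Same-numbered libraries deviated together (every pair's correlation over 0.1) in 5 of 12 comparisons, and this decided where a replicate block is reported beside a result.

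Transcripts named are members with a symbol, those first by the rule or most abundant, those highest and lowest in X1 relative to Xins among annotated members, those at the limit of the list, and up to 3 per process entry. Names were taken from the study's lists. The fits were tested on simulated data. Alternatives covered scaling, pseudocount, filter, libraries fitted and each library left out.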

Additional observations from a re-analysis of the deposited data

Results flagged for a closer look

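In 3 groups of 4 libraries, the replicate numbered 4 stood apart in the share of the library total that the 100 members held. This share was 2.44% in X2 replicate 4 of 30dS, where the other 3 libraries held 1.49% to 1.57%. It was 1.55% in Xins replicate 4 of 7dS, against 0.647% to 0.715% in the others, and 1.66% in Xins replicate 4 of 30dS, against 0.660% to 0.707%. The gap to the nearest library made up 0.917, 0.925 and 0.954 of the group's range, over Dixon's 95% critical value for 4 libraries, which chance alone passes in about 1 in 20 groups. The members ranked 1 to 9 held 0.811%, 0.781% and 0.830% of the total in these 3 libraries. Member by member, 90 of 900 pairs of a member and a group had 1 library apart by the same measure, most often a starved replicate numbered 4.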

How the results depend on the processing

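The median of each of the 6 changes over members stayed below 0 under every alternative run for it. The member list was held fixed there, so the rule largely set this outcome in advance. The median of X1 minus Xins, which the rule did not use, stayed above 0 under every alternative. The median of 30dS minus 7dS did not keep its sign: with rescaling it was -0.02 in X1 and -0.02 in Xins, and with 1 library left out it ran from -0.01 to 0.22 in X1 and from -0.12 to 0.00 in X2. Relative to the median of all transcripts tested, it stood at 0.09 in X1 and 0.14 in Xins both with and without rescaling. The highest change of comp33595, comp70360 and comp101444 was 0.43, 0.48 and 0.77 when the log2 was taken of the mean value. Rescaling each library to a total of 1000000 gave a median change in X2 of -1.01 at 7dS and -0.9997 at 30dS, and in Xins of -0.83 at 7dS, with 24 members called lower in Xins at 7dS and 28 at 30dS. Quantile normalisation gave -1.03 and -0.98 in X2. Rescaling also moved the median of all transcripts tested to 0.36 and 0.39 in X2 and to 0.38 and 0.20 in Xins, and relative to it the members stood at -1.37 and -1.39 in X2 and at -1.20 and -1.04 in Xins. With the libraries of the 2 times alone, 22 members were called lower in Xins at 7dS. Over all transcripts tested, 129 of 17174 were lower there, and with rescaling 103 of 17327 at 7dS and 162 at 30dS. Without the replicates numbered 4, an alternative chosen after seeing the data, 41 members were called lower in X1 at 30dS. Over all transcripts tested 270 of 13132 were. Between X1 and Xins, median-of-ratios scaling gave medians of 2.05 at 1dS, 1.79 at 7dS and 1.96 at 30dS, 64 members higher at 7dS, and 1 lower at each time. With this scaling 4562 of 16828 transcripts tested were higher at 7dS. Lower were 5182 of 16304 at 1dS, 5558 of 16828 at 7dS and 5470 of 15855 at 30dS. The cause of these shifts was not tested.

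With the replicate number as a block, 93 members were called lower in Xins at 7dS, and 67 were higher and 8 lower in X1 than in Xins at 7dS, with 8 lower at 30dS. Over all transcripts tested, 2396 of 16996 were lower in Xins at 7dS. Between X1 and Xins, 3874 were higher and 9129 lower of 17713 at 7dS, and 8955 of 16665 lower at 30dS. In comparisons where same-numbered libraries did not deviate together, the block gave 91 and 89 members lower in X1, 100 and 100 in X2, and 90 in Xins at 30dS, and each library correlated best with its own number in 2 of 12 comparisons. The block called 1427 and 1025 of 13269 transcripts lower in X1, 2340 and 2558 of 15003 in X2, and 2240 of 16996 in Xins at 30dS.

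Leaving out 1 library at a time gave 49 to 75 members called lower at 7dS and 44 to 66 at 30dS in X1, 65 to 94 and 72 to 96 in X2, and 27 to 58 and 28 to 53 in Xins. The median changes ran from -1.42 to -1.13 and from -1.28 to -0.99 in X1, from -1.65 to -1.22 and from -1.67 to -1.22 in X2, and from -1.42 to -1.03 and from -1.28 to -0.88 in Xins. Between X1 and Xins, 46 to 54, 34 to 45 and 43 to 55 members were higher at 1dS, 7dS and 30dS, 2 to 3, 2 to 2 and 2 to 2 were lower, and the medians ran from 1.19 to 1.33, 0.91 to 1.36 and 0.86 to 1.30. The list itself kept 72 to 99 of its 100 members with 1 library left out, 85 with rescaling and 78 without the replicates numbered 4.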
